A study of Mus musculus with 6 samples.

Results

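Met, Dusp6, Egr1 and Fosl1 are 4 of the 714 mouse genes in the authors' deposited comparison of Senp8+/- with wild-type macrophages. They were picked by name to ask whether Dusp6, a feedback gene of the ERK pathway, follows the receptor gene Met and the ERK target genes Egr1 and Fosl1 from library to library. Each of the 714 listed genes had an unadjusted p-value under 0.05 (the highest was 0.0499) and at least a 2-fold difference between the genotypes. A difference between the genotypes is therefore what put these 4 genes in the table, so the folds and p-values given for it here describe the table and are no independent test of it. The log2 fold change closest to the limit was that of Fosl1, at 1.01 in the authors' deposited table, and all 4 genes were higher in Senp8+/-.

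RNA was sequenced from 3 libraries of Senp8+/- and 3 of wild-type cells, all C57BL/6. Senp8 encodes a protease that frees proteins of NEDD8, a small modifier related to ubiquitin, and the sample titles abbreviate the heterozygous cells as KO. The cells were grown from bone marrow of the long leg bones for 6 days with the myeloid growth factor GM-CSF at 10 ng/ml. All 6 libraries shared exposure to streptavidin beads carrying CD47, a ligand of the inhibitory macrophage receptor SIRPα, for 24 h before RNA extraction. Cells without CD47 were not analysed here. The labels give neither the sex nor the number of animals, nor is it said whether the 3 libraries of a genotype are from different mice or dishes, so their spread may be technical. Levels are normalised counts, that is, reads of a gene divided by 1 size factor per library, and errors are SD over the 3 libraries of a genotype unless another is named.

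Met is the receptor tyrosine kinase for hepatocyte growth factor (HGF). When the receptor is bound it recruits adaptors that switch on RAS, RAF, MEK and ERK in turn. ERK enters the nucleus and raises immediate early genes such as Egr1, a zinc finger transcription factor, and, later, Fosl1, which encodes the AP-1 subunit FRA1. Dusp6 encodes a phosphatase that removes the activating phosphates from ERK in the cytoplasm, and its transcription is itself raised by ERK, which closes a negative feedback loop. In macrophages ERK is also switched on by other receptors, among them those for CSF-1 and GM-CSF and the Toll-like receptors, so these transcripts are not particular to Met. Messenger RNA does not report the phosphorylation of ERK or of Met.

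The sequence before the start of Dusp6 is shown because it carries matches to the core of the sites bound by ETS factors, a family with members that ERK phosphorylates. The 250 bases upstream of the RefSeq start, chr10:99262981-99263230 on the plus strand of GRCm38.p6, are given with CGGAA, or its complement TTCCG, in capitals.
Dusp6: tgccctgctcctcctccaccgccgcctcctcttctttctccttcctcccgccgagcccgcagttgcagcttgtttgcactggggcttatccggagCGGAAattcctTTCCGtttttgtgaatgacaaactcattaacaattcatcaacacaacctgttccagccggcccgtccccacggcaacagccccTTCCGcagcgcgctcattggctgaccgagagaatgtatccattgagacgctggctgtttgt
There were 3 such matches, beginning 155, 144 and 61 bases upstream of the start. On either strand CGGAA was found in 25.2% of the 32851 RefSeq windows of that length. For Met, the stretch around 1 match to TGANTCA, the AP-1 motif to which FOS and JUN family proteins bind, is shown at chr6:17463892-17463921 (plus strand) with the match in capitals.
Met: tgttgcccggcTGAGTCAcgggccgggcag
That match began 54 bases upstream of the RefSeq start, within the annotated 5′ untranslated first exon of the GENCODE transcripts Met-203 and Met-204. TGANTCA, which reads the same on both strands, was in 6.75% of the windows. The 250 bases of Dusp6 held 0 matches to TGANTCA and those of Met 0 to CGGAA, and neither held a CArG box, the motif of serum response factor, which 1.47% of windows had. The motifs do not overlap each other here, and a match is only a run of letters.

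Met, the receptor, had 2901, 2542 and 1820 normalised counts in Senp8+/- replicates 1, 2 and 3, against 812, 637 and 1555 in wild-type replicates 1, 2 and 3. The genotypes did not overlap, but wild-type replicate 3 lay near the lowest Senp8+/- library, which was only 1.17-fold above it. In bulk RNA such as this, fewer cells of a type and less RNA per cell cannot be told apart. The means were 2421 ± 550 in Senp8+/- and 1001 ± 488 in wild type, a 2.42-fold difference, with a log2 fold change of 1.35 ± 0.34 (limma, SE). Without wild-type replicate 3 the mean of the wild-type libraries was 724 and the difference 3.34-fold, and leaving out any other library gave 2.05- to 2.72-fold. Met (ENSMUSG00000009376) covers chromosome 6 from 17463800 to 17573980 in the table, as in GENCODE M21 for GRCm38.

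Dusp6, the feedback phosphatase, was the steadiest of the 4 within the Senp8+/- libraries. It had 1673, 1977 and 1929 normalised counts in Senp8+/- replicates 1, 2 and 3, against 814, 835 and 687 in wild-type replicates 1, 2 and 3. Every Senp8+/- library stood at least 2.003-fold above every wild-type library, a wider gap than for Met, Egr1 or Fosl1. The means were 1860 ± 164 in Senp8+/- and 779 ± 80.3 in wild type, a 2.39-fold difference (log2 fold change 1.26 ± 0.25, limma, SE). With any 1 library left out the difference stayed between 2.26- and 2.51-fold. Dusp6 (ENSMUSG00000019960) lies on chromosome 10 from 99263231 to 99267489.

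Egr1, the immediate early factor, had 287, 260 and 174 normalised counts in Senp8+/- replicates 1, 2 and 3, against 68.3, 26.4 and 159 in wild-type replicates 1, 2 and 3. The genotypes met at their edges, with the lowest Senp8+/- library 1.09-fold above wild-type replicate 3. Counting error alone spans that gap. From 162 reads the 95% Poisson interval of Senp8+/- replicate 3 was 148 to 202 normalised counts, and from 182 reads that of wild-type replicate 3 was 137 to 184. The means differed 2.84-fold, 240 ± 59.3 in Senp8+/- and 84.6 ± 67.8 in wild type (log2 fold change 1.81 ± 0.53, limma, SE). Without wild-type replicate 3 the mean in wild type was 47.4 and the difference 5.07-fold, and without any other library it was 2.11- to 3.23-fold. Egr1 (ENSMUSG00000038418) lies on chromosome 18 from 34859823 to 34864984.

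Fosl1, the AP-1 subunit gene, had 61.8, 85.6 and 54.6 normalised counts in Senp8+/- replicates 1, 2 and 3, against 31.7, 32.7 and 35.8 in wild-type replicates 1, 2 and 3. The genotypes did not overlap, and the lowest Senp8+/- library stood 1.53-fold above the highest wild-type library. The means were 67.3 ± 16.2 in Senp8+/- and 33.4 ± 2.15 in wild type, a 2.02-fold difference (log2 fold change 0.97 ± 0.34, limma, SE), and it ranged from 1.74- to 2.20-fold with 1 library left out. Fosl1 (ENSMUSG00000024912) lies on chromosome 19 from 5447703 to 5455945 in the table.

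**Figure D1:**
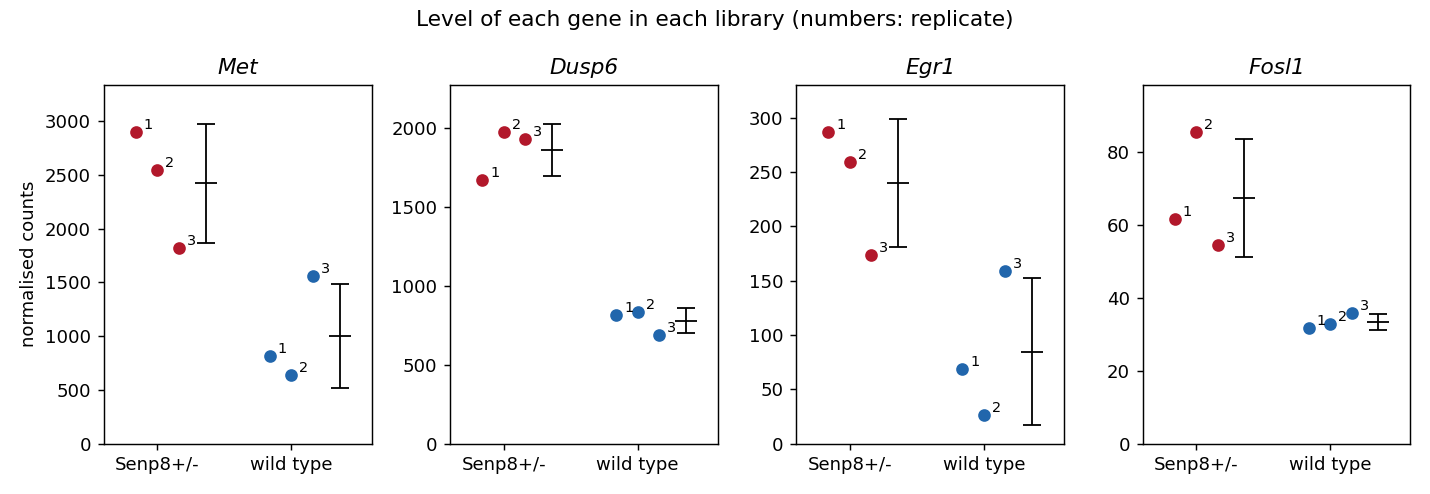
Normalised counts of Met, Dusp6, Egr1 and Fosl1 (vertical axes from 0) in the 3 Senp8+/- and the 3 wild-type libraries; points are libraries with their replicate numbers, and the black bar beside them is the mean ± SD. Wild-type replicate 3 is the highest wild-type library for Met (1555) and Egr1 (159) and the lowest for Dusp6 (687).

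The authors' deposited table gave Dusp6 an adjusted p of 1.27e-07 and Met one of 0.0351, and it gave Egr1 0.163 and Fosl1 0.124. So 2 of the 4 genes, Met and Dusp6, passed an adjusted p of 0.05, both upward. Among the 714 listed genes 53 passed upward, or 7.42%, and these were 0.361% of the 14694 genes in the authors' correction. In either direction 295 passed, 41.3% of the listed genes and 2.01% of the 14694. The 4 genes were chosen from this comparison, so the count is a description. The p-values of other tools below are likewise descriptions of genes already selected on this comparison. The tools differed over Met. Fitted to log2(normalised count + 1), limma gave it an adjusted p of 0.0909, edgeR on the recovered reads gave 0.0827 and DESeq2 gave 0.0447. All 3 tools were fitted to the 714 listed genes only, with adjustment over 14694. limma called 176 of the 714, which are 1.2% of the 14694, edgeR 180 and DESeq2 235. Each of the 3 tools gave Dusp6 an adjusted p under 0.05 (limma 0.0303, edgeR 0.0255 and DESeq2 0.00110), and none did so for Egr1 or Fosl1. In limma the call of Dusp6 needed all 6 libraries or the omission of wild-type replicate 3. With any other library left out, or with the replicate number as a block, limma called 0 of the 4. Groups that did not overlap, with Senp8+/- above, were found for all 4 genes and for 134 of the 714 listed genes (18.8%). Only 145 listed genes were higher in Senp8+/-, so such separation was common among genes of that direction. Nothing is read from that count.

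Within a genotype, Dusp6 did not follow Met or Egr1. Among the wild-type libraries Met and Egr1 were highest in replicate 3, intermediate in replicate 1 and lowest in replicate 2, and Dusp6 had the reverse order. Among the Senp8+/- libraries Met and Egr1 were both highest in replicate 1, intermediate in replicate 2 and lowest in replicate 3, whereas Dusp6 was lowest in replicate 1, where they were highest. Fosl1 also had an order other than that of Dusp6 in each genotype, but its order was not resolved from counting error, as given below. With 3 libraries a genotype and the genotypes forming separate clusters, no correlation was computed, and these orders are a description.

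The 4 genes also differed in the size of their spread. Among wild-type libraries, Egr1 spanned 2.55 on the log2(normalised count + 1) scale and Met 1.29, but Dusp6 spanned 0.28 and Fosl1 0.17. Among Senp8+/- libraries the spans were 0.72 for Egr1, 0.67 for Met, 0.64 for Fosl1 and 0.24 for Dusp6. Wild-type replicate 3 lay 0.74 above its genotype's mean for Met and 1.25 above it for Egr1, on that scale, and for Dusp6 its deviation was -0.18.

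Counting error limited which of these orders were resolved. For Met the 95% Poisson intervals of libraries of the same genotype did not overlap. For Dusp6 those of wild-type replicates 1 (759 to 872 normalised counts) and 2 (778 to 895) overlapped, as did those of Senp8+/- replicates 2 (1894 to 2063) and 3 (1841 to 2021), so only the lowest library of each genotype stood apart. For Egr1 those of Senp8+/- replicates 1 (254 to 323) and 2 (230 to 292) overlapped. The Fosl1 libraries of wild type rested on 32, 31 and 41 reads, and their coefficient of variation, 6.43%, was under the 17.0% that counting alone would give, so their order was not resolved. The Senp8+/- intervals of Fosl1 also overlapped one another (47.1 to 79.5, 69.0 to 105 and 40.7 to 71.8 in replicates 1, 2 and 3). For Dusp6 the coefficients of variation were 8.80% in Senp8+/- and 10.3% in wild type, against 2.32% in Senp8+/- and 3.54% in wild type from counting. These intervals and percentages cover counting error only.

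**Figure D2:**
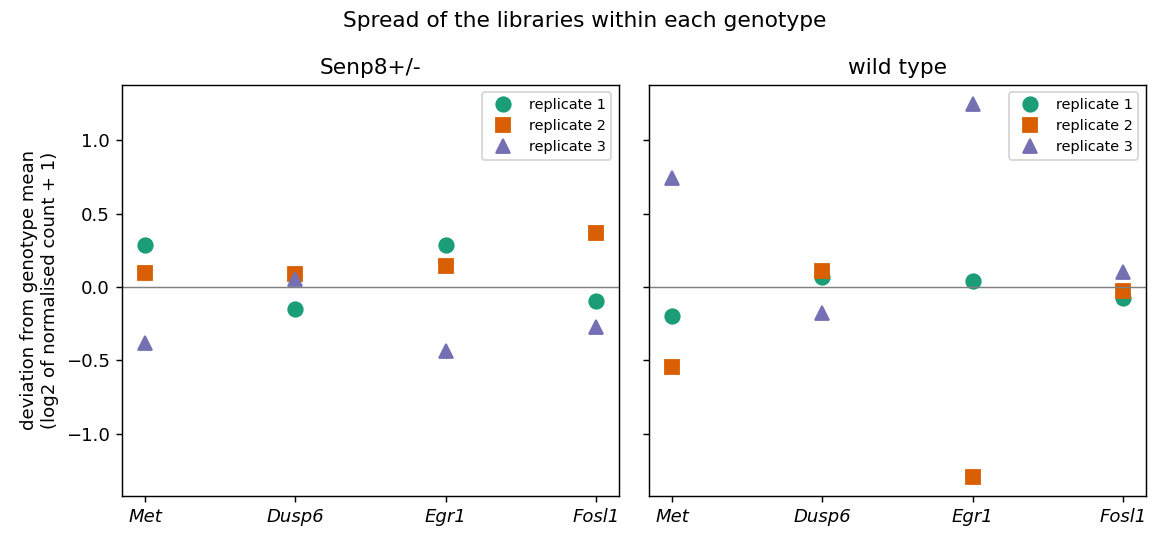
Deviation of each library from the mean of its genotype on the log2(normalised count + 1) scale (vertical axis) for the 4 genes, Senp8+/- on the left and wild type on the right; symbols are replicates. Replicate 3 of wild type is at 0.74 for Met and 1.25 for Egr1 but at -0.18 for Dusp6.

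The ratio of Dusp6 to Met was 0.577, 0.778 and 1.06 in Senp8+/- replicates 1, 2 and 3, against 1.002, 1.31 and 0.442 in wild-type replicates 1, 2 and 3. These overlapped between the genotypes and varied 1.84-fold within Senp8+/- and 2.97-fold within wild type. The ratio of Dusp6 to Egr1 was 5.82, 7.62 and 11.1 in Senp8+/- replicates 1, 2 and 3, against 11.9, 31.6 and 4.32 in wild-type replicates 1, 2 and 3, and also overlapped. The ratio of Dusp6 to Fosl1 was 23.1 to 35.3 in Senp8+/- and 19.2 to 25.7 in wild type, and varied less, 1.53-fold within Senp8+/- and 1.34-fold within wild type. Counting alone would give Fosl1 a coefficient of variation of 12.2% in Senp8+/- and 17.0% in wild type. The smaller range therefore does not show that Dusp6 follows Fosl1. The tightest ratio was that of Egr1 to Met in Senp8+/-, at 0.0990, 0.102 and 0.0954, a 1.07-fold range. Counting alone would give Egr1 a coefficient of variation of 6.45% in Senp8+/-, so a range this narrow is not resolved from counting error. In wild type the ratio of Egr1 to Met was 0.0841, 0.0415 and 0.102 in replicates 1, 2 and 3, a 2.47-fold range. Replicate 3 of wild type thus had the Senp8+/- ratio and replicate 2 was well below it.

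**Figure D3:**
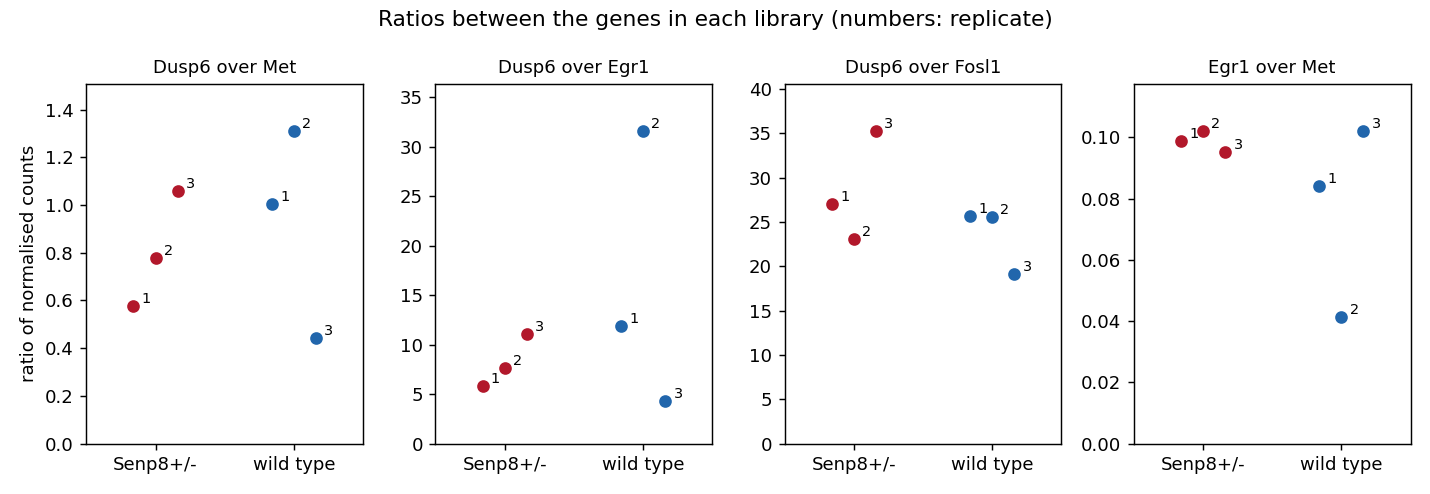
Ratio of normalised counts between pairs of the 4 genes (vertical axes from 0) in each Senp8+/- and wild-type library, with replicate numbers. Dusp6 over Met overlaps between Senp8+/- (0.577 to 1.06) and wild type (0.442 to 1.31), and Egr1 over Met has a 1.07-fold range within Senp8+/-.

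Expressed per kilobase of the gene length in the table, which allows levels to be compared between genes, Dusp6 was the most abundant of the 4. Its level was 594 ± 52.3 normalised counts per kilobase in Senp8+/- and 249 ± 25.6 in wild type. Met came next with 315 ± 71.7 in Senp8+/- and 130 ± 63.5 in wild type, and its libraries did not overlap those of Dusp6 in either genotype. For Egr1 the level per kilobase was 53.5 ± 13.2 in Senp8+/- libraries and 18.9 ± 15.1 in wild-type libraries. For Fosl1 it was 39.4 ± 9.50 in Senp8+/- libraries and 19.6 ± 1.26 in wild-type libraries. The libraries of Egr1 and Fosl1 overlapped in both genotypes, so these neighbours in the order were not separated by their spread.

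The contribution of single libraries is plotted as fold differences with each library left out. For each of the 4 genes and each library left out, the mean stayed higher in Senp8+/-. As the genotypes did not overlap for any of the 4, that direction was fixed in advance. Only the size of the fold could change.

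**Figure D4:**
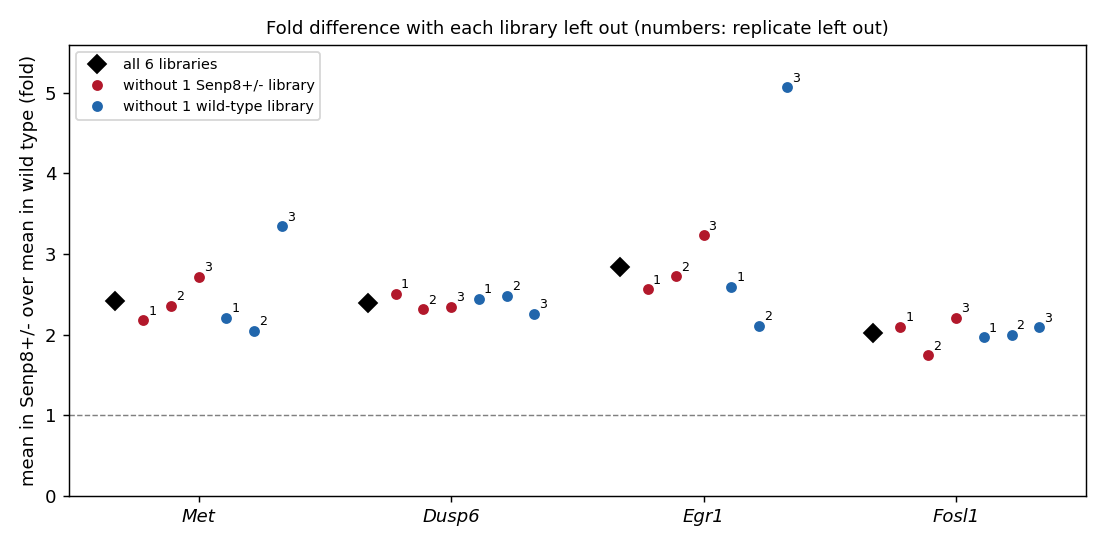
Mean of Senp8+/- over mean of wild type (fold, linear axis from 0) for the 4 genes with all 6 libraries (diamonds) and with each library left out (circles, numbered by replicate). Removing wild-type replicate 3 moves Met to 3.34-fold and Egr1 to 5.07-fold, and Dusp6 stays between 2.26- and 2.51-fold.

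The order that Met and Egr1 shared was also that of other genes. Of the 421 listed genes with a mean of at least 20 normalised counts, 56 (13.3%) had that order of libraries in both genotypes, more than had any other order. Of these 56, 7 lay among the 82 that were higher in Senp8+/-. The order of Dusp6 was found for 21 of the 421 genes (4.99%), and for 7 of the same 82. Counting error resolved only the lowest Dusp6 library of each genotype, so a match to its full order is loose.

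Likeness was measured as the root mean square difference between the profiles of 2 genes over the 6 libraries, each on the log2(normalised count + 1) scale and centred on its own mean, among 381 other protein-coding genes with a mean of at least 20. For Dusp6 the nearest genes were Eif2s3y, a Y-linked translation initiation factor subunit (difference 0.147), Usp18, which strips the interferon-induced modifier ISG15 from proteins (0.156), and Pdpn, a membrane mucin (0.165). Fosl1 was at place 15 (0.267), Met at place 49 (0.538) and Egr1 at place 61 (0.903). These differences include that between the genotypes, on which the table was selected, so genes higher in Senp8+/- come nearest. The places are thus better read against the genes higher in Senp8+/- than against 381. Those were 82 of the 421 with a mean of at least 20, before the limit to protein-coding genes. On deviations from the genotype means, an alternative chosen after seeing the data, Fosl1 came at place 68, Met at place 304 and Egr1 at place 370 of 381 from Dusp6. The 3 genes nearest to Dusp6 were then others, Ly6e, Irf7 and Kcnq1. With the first centring and without Senp8+/- replicate 3, Fosl1 came at place 6. For Egr1 the nearest gene was Met (0.447), followed by Mid1, a ubiquitin ligase (0.455), and Pmepa1 (0.468), an inhibitor of TGF-β signalling. Met came at place 2 to 4 from Egr1 without Senp8+/- replicate 1 or 3 or wild-type replicate 1 or 3, and at place 28 on deviations from the genotype means. On those deviations the 3 nearest to Egr1 were Siglec1, Dab2ip and Aatk.

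For Met the nearest were Chst11, a chondroitin sulfotransferase (0.192), Dcp1b, a subunit of the mRNA decapping enzyme (0.199), and Ptpn3, a tyrosine phosphatase (0.215). Fosl1 was at place 22, Egr1 at place 23 and Dusp6 at place 28. Egr1 came at place 1 from Met without wild-type replicate 2. On deviations from the genotype means Egr1 was at place 118, Fosl1 at place 122 and Dusp6 at place 196 from Met. The 3 genes nearest to Met were then Crim1, Zfp36l1 and Adamtsl4. For Fosl1 the nearest were Liph, a phospholipase (0.110), Carmil1, a regulator of actin capping (0.111), and Adgrg3, an adhesion G protein-coupled receptor (0.204), and Dusp6 was at place 10, or 29 on deviations from the genotype means. On those deviations the 3 nearest to Fosl1 were Carmil1, Liph and Enpp5. Of Chst11, Dcp1b and Ptpn3, the most abundant was Chst11. It had 10967, 8930 and 6728 normalised counts in Senp8+/- replicates 1, 2 and 3, against 4158, 2944 and 6100 in wild-type replicates 1, 2 and 3. Its libraries had the order of those of Met and Egr1.

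Y-linked genes differed between the genotypes, and Eif2s3y had the order of libraries of Dusp6 in both genotypes. Eif2s3y had 1024, 1345 and 1221 normalised counts in Senp8+/- replicates 1, 2 and 3, against 476, 656 and 405 in wild-type replicates 1, 2 and 3. Ddx3y, an RNA helicase gene on the same chromosome, averaged 910 ± 124 in Senp8+/- and 328 ± 96.1 in wild type, and Uty, a histone demethylase family gene, 299.8 ± 56.2 in Senp8+/- and 145 ± 42.7 in wild type. Among Senp8+/- libraries Ddx3y and Uty also had the order of Dusp6, of which counting error resolved only the lowest library. Ddx3y had 816 and 865 normalised counts in Senp8+/- replicates 1 and 3, where counting alone would give a coefficient of variation of 3.32%. Among wild-type libraries Ddx3y and Uty were highest in replicate 3, where Dusp6 was lowest. All 4 Y-linked genes of the table were higher in Senp8+/- and passed in the authors' deposited table. The part of cells from male animals in the levels of Dusp6, Met, Egr1 and Fosl1 was not tested, and the labels give no sex.

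Other genes of the HGF and Met system split by direction. Of 34 genes in that list, Met included, 5 were listed and 2 passed in the authors' deposited table, Met upward and Mst1r downward. Downward calls made up 33.9% of the listed genes. Mst1r, which encodes RON, the only close relative of the Met receptor, had 26.8, 10.2 and 13.9 normalised counts in Senp8+/- replicates 1, 2 and 3, against 55.5, 35.9 and 111 in wild-type replicates 1, 2 and 3. It fell 3.97-fold between the means and, like Met, was highest in replicate 3 among the wild-type libraries. The median log2 fold change of the 5 genes in the authors' deposited table was -1.13, against -1.48 over all 714 listed genes.

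The proteases that activate HGF and their inhibitor did not pass. St14, which encodes the activating protease matriptase, averaged 25.7 ± 14.8 in the Senp8+/- libraries and 57.7 ± 25.6 in the wild-type libraries. Hpn, which encodes the related protease hepsin, averaged 22.2 ± 6.75 in the Senp8+/- libraries and 48.5 ± 2.84 in the wild-type libraries. Spint1, which encodes an inhibitor of these proteases, averaged 25.8 ± 2.79 in the Senp8+/- libraries and 9.50 ± 2.34 in the wild-type libraries. Hgf itself was not analysed here.

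Of 52 genes of receptors, RAS regulators and kinases of the ERK cascade, 3 were listed, each lower in Senp8+/-, and 0 passed, and with equal medians over the listed genes 2 of them, Flt1 and Pdgfra, turned to a positive log2 fold change (0.04 and 0.03). Rasgrp1, an activator of RAS, averaged 14.2 ± 5.83 in the Senp8+/- libraries and 33.7 ± 17.4 in the wild-type libraries. The VEGF receptor gene Flt1 averaged 185 ± 31.7 in the Senp8+/- libraries and 399 ± 209 in the wild-type libraries. Flt1 had the order of libraries of Met and Egr1 in both genotypes, with the difference between the genotypes in the other direction. The same held for St14 and for the stromal genes Col1a1, Col1a2 and Fbn1. The coefficient of variation of Fbn1 in Senp8+/- was 39.2%, where counting alone would give 28.9%, so its order there is weakly resolved. The other listed stromal genes, Col3a1, Dcn, Lum, Pdgfra and Thy1, had other orders. Of these, Dcn, Lum and Thy1 were lowest in wild-type replicate 3, where Met and Egr1 were highest. The PDGF receptor gene Pdgfra is counted below with the stromal genes. None of the 26 genes of a list on NEDD8 and cullin ligases was listed, Senp8 included, so the level of Senp8 gives no check of the genotype labels here.

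Of 70 immediate early, feedback and target genes of ERK, 8 were listed, 6 higher and 2 lower in Senp8+/-, and 3 of these 8 are Dusp6, Egr1 and Fosl1. Of the 714 listed genes 145 were higher and 569 lower. Upward 3 passed in the authors' deposited table, Dusp6, Id1 and Serpinb2, and downward 1 passed, Npas4, where 7.42% of the listed genes passed upward and 33.9% downward. The median log2 fold change of the 8 there was 1.38. Spry3, of the Sprouty family of RAS pathway inhibitors, was low, with 4.49 ± 4.29 normalised counts in Senp8+/- libraries and 19.5 ± 3.89 in wild-type libraries, and did not pass. The other DUSP, Sprouty and SPRED genes of the list were not analysed here.

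The genes of that list did not share an order of libraries. Serpinb2, a protease inhibitor gene raised by ERK and by inflammatory signals, had 592, 499.6 and 412 normalised counts in Senp8+/- replicates 1, 2 and 3, against 74.3, 63.3 and 47.2 in wild-type replicates 1, 2 and 3. It rose 8.14-fold between the means. Its Senp8+/- libraries had the order of Met and Egr1, but wild-type replicate 3, the highest wild-type library for Met and Egr1, was its lowest library. The coefficient of variation of Serpinb2 in wild type was 22.1%, of which counting alone would give 12.6%, so its order there is weakly resolved. Id1, an inhibitor of helix-loop-helix factors and better known as a target of BMP signalling, had 17.5, 131 and 186 normalised counts in Senp8+/- replicates 1, 2 and 3, against 9.90, 10.6 and 6.12 in wild-type replicates 1, 2 and 3. Its mean was 12.6-fold higher in Senp8+/- with all libraries and 8.39-fold higher without Senp8+/- replicate 3. Its relative Id3 had 60.7, 420.5 and 508 in Senp8+/- replicates 1, 2 and 3, against 118, 74.95 and 36.7 in wild-type replicates 1, 2 and 3, and did not pass. Both were lowest among Senp8+/- libraries in replicate 1, where Met and Egr1 were highest. Npas4, an immediate early gene of neurons, averaged 3.93 ± 2.31 in the Senp8+/- libraries and 59.99 ± 72.1 in the wild-type libraries. Wild-type replicate 3 had 143 normalised counts of Npas4 and wild-type replicates 1 and 2 had 19.8 and 16.9, the order of Met and Egr1 in wild type. Its mean was 15.3-fold lower in Senp8+/- with all libraries and 4.67-fold lower without wild-type replicate 3.

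**Figure D5:**
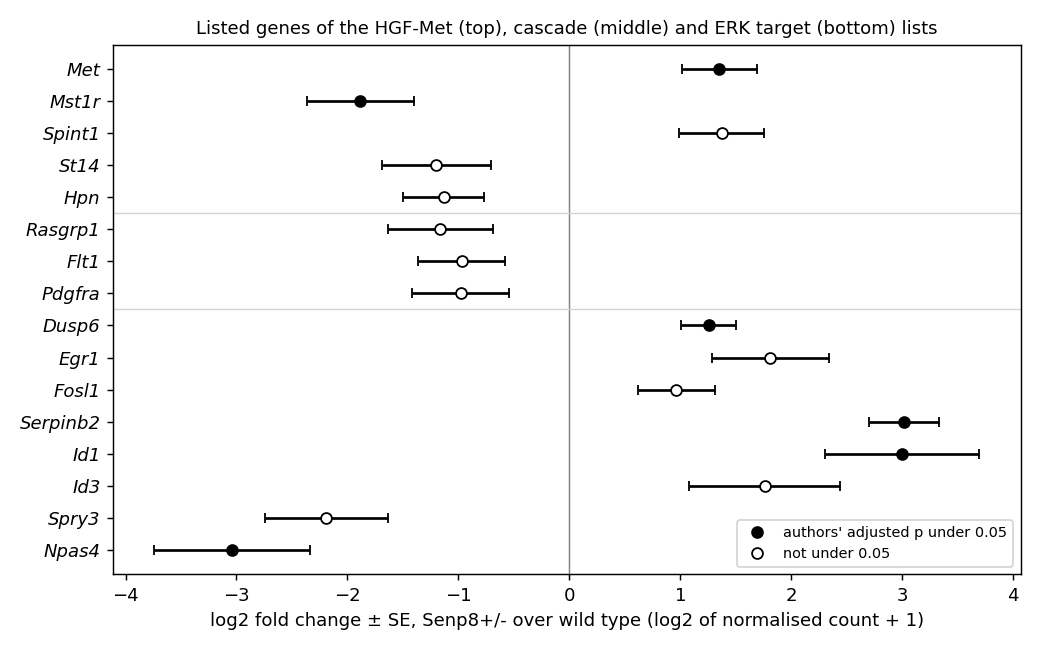
Log2 fold change of Senp8+/- over wild type with its SE (limma, log2 of normalised count + 1; horizontal axis) for the 16 listed genes of the HGF and Met, cascade and ERK target lists; filled points passed an adjusted p of 0.05 in the authors' deposited table. Met and Dusp6 lie to the right at 1.35 and 1.26, and Mst1r lies to the left.

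Summed levels of some markers of other cells followed, in part, the libraries that were high for Met and Egr1. Of 9 fibroblast and stromal genes 8 were listed, all lower in Senp8+/- except Pdgfra with equal medians, and 2 passed, where 33.9% of the listed genes passed downward. Their summed level was 715, 419 and 397 normalised counts in Senp8+/- replicates 1, 2 and 3, the order of Met and Egr1, against 1788, 706 and 1574 in wild-type replicates 1, 2 and 3, where replicate 2 was lowest as for Met and Egr1. Pdgfrb was the 1 marker not analysed here. The complement genes C1qa and C1qc, the 2 listed of 11 macrophage markers, neither of which passed and of which C1qc turned to a positive log2 fold change with equal medians, summed to 8169, 8309 and 11604 normalised counts in Senp8+/- replicates 1, 2 and 3, against 23069, 24342 and 10922 in wild-type replicates 1, 2 and 3. In wild type that sum was lowest in replicate 3, where Met and Egr1 were highest. In Senp8+/- it was lowest in replicate 1, where they were also highest, but replicate 2 was close to it. Counting alone would give a coefficient of variation of 1.67% for C1qa and 1.33% for C1qc in Senp8+/-, so replicates 1 and 2 were not resolved.

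The remaining marker lists were low or held few listed genes. The summed level of 5 listed T and NK cell genes of 11, each lower and 4 of them passing, was 5.58 to 8.57 in Senp8+/- and 70.8 to 153 in wild type, with Gzma and Ncr1 at 0 in the Senp8+/- libraries. For 3 of 10 neutrophil genes, each passing downward, the sum was 358 to 561 in Senp8+/- and 1187 to 1566 in wild type, with Retnlg at 0 in Senp8+/-, and for 2 of 8 dendritic cell genes, both passing downward, 177 to 276 in Senp8+/- and 545 to 786 in wild type. Pecam1, the 1 listed of 5 endothelial genes, had 0 to 6.18 in the Senp8+/- libraries and 16.9 to 25.3 in the wild-type libraries, and passed. Cd79b, of 4 B cell genes, had 10.7 to 12.4 in the Senp8+/- libraries and 25.3 to 46.5 in the wild-type libraries. The mast cell gene Tpsab1, of 6, passed upward, with 6.18 to 26.0 in the Senp8+/- libraries and 0.874 to 3.96 in the wild-type libraries. None of 6 epithelial genes was listed, so they and the defining macrophage genes Adgre1 and Csf1r were not analysed here. The part of any of these cells in the levels of Met, Dusp6, Egr1 and Fosl1 was not tested.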

How the data were processed

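Reads were processed with HISAT2 2.0.5 and with featureCounts 1.5.0-p3, per the submitters' processing notes. For the build, annotation, counting strand and test tool, nothing is given in the sources used here. The authors deposited 1 table whose values per library are a signal, read counts divided by a size factor (0.971, 1.07 and 0.933 in Senp8+/- and 1.01, 0.947 and 1.14 in wild type). The values were whole multiples of 1 step in 100% of cases (tolerance 1e-06 of a read), so whole reads were recovered. They summed to 205957 to 491156 reads over the listed genes, which is not the depth of a library. The authors also deposited a log2 fold change, p-values and adjusted p-values, and these imply 14694 genes in their correction. Because the table holds only genes selected on the comparison, effects are on average overstated and no scaling can be derived from it. There were 0 columns of other samples.

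The 4 genes, the gene lists and the tests were chosen with earlier results of these data known. limma 3.58.1 (R 4.3.3; empirical Bayes with trend, genotype as the only term) was fitted to log2(value + 1) over all 714 genes, with Benjamini-Hochberg adjustment over 14694. It was tested on simulated data. edgeR 4.0.16 (quasi-likelihood) and DESeq2 1.42.0 on recovered reads were alternatives, with other pseudocounts, scalings, a filter, a replicate block and each library left out. "Passed", "rose" and "fell" refer to an adjusted p under 0.05 in the authors' deposited table. Intervals are exact Poisson, 95%. Named genes are the 4 genes, every listed gene of the HGF and Met, cascade, ERK target and NEDD8 lists, and the 3 nearest to each of the 4 with each centring. Ddx3y, Uty and the single cell markers named were chosen after their values were seen. Of the 714 identifiers, 713 were in GENCODE M21 on the reference chromosomes of GRCm38, and 686 had identical boundaries there, so positions are called GRCm38. RefSeq promoter windows (GRCm38.p6) matched 2 of the 4 genes by symbol.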

Additional observations from a re-analysis of the deposited data

How the results depend on the processing

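The log2 fold changes of Met, Dusp6, Egr1 and Fosl1 were positive under every alternative run. With a library left out that sign was fixed in advance, because the genotypes did not overlap for these genes. Giving every library the same median over the 714 genes, which shifted the median gene by 0.96, moved them to 2.37, 2.27, 2.81 and 1.96, and it put 78.1% of the limma calls upward, against 15.3% at the deposited scaling, and all 4 genes among the calls. With each library left out they ranged from 1.08 to 1.72 for Met, 1.17 to 1.33 for Dusp6, 1.16 to 2.44 for Egr1 and 0.78 to 1.10 for Fosl1. limma called 176 of the 714 genes, and 11 to 181 with a library left out, namely 11 without wild-type replicate 1, 37, 87 and 100 without Senp8+/- replicates 2, 3 and 1, and 112 without wild-type replicate 2. The cause was not tested. At the deposited scaling limma called Dusp6 alone of the 4 genes with all libraries, 0 of the 4 under each of those omissions, and 3 without wild-type replicate 3.

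With a replicate block limma called 174 genes and 0 of the 4, and the SE of Dusp6 became 0.34. The numbers do not pair the libraries in the labels. Deviations of same-numbered libraries correlated at -0.04, -0.07 and -0.49 over 421 genes, and 0 of 6 libraries correlated best with their own number.

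Places by likeness to Dusp6, Met and Egr1 moved with the centring and with single libraries, with the values given beside each place. Low counts limit Fosl1 and Egr1 most.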
